A study of Rattus norvegicus with 8 samples.

Results

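The genes described here are 36 genes of the endoplasmic reticulum (ER) that fold secreted proteins, carry the unfolded protein response or let new proteins into the secretory pathway, as measured in rat livers after lipopolysaccharide (LPS) and in control livers. They were chosen by name: every array probe whose symbol, current or older, belongs to one of the 36 was taken. The list of names was drawn up with earlier results of these data known, so counts over it describe these genes and are not a test. Of the 36, 33 had a probe, with 47 probes in all, and 32 had enough values for a test, out of 14332 gene symbols on the array of which 14219 were tested. Pdia4, Pdia6 and Spcs3 had no probe that could be named. Hspa5, which encodes BiP, an abundant ER chaperone, had a value on 1 array only. That value, on LPS array 3, was 46.35 units in the liver against 45.88 units in the pool, so BiP was not tested. A probe listed under Cabp1, an older name of Pdia6, carried the accession of a different gene, the calcium-binding Cabp1, and was left out.

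Hepatocytes secrete most plasma proteins, and all of these pass through the ER. A growing chain with a signal sequence enters through the Sec61 channel, helped by the translocon-associated protein complex (the Ssr genes, also called TRAP), and signal peptidase (Sec11 and the Spcs subunits) removes the signal sequence. Inside, BiP, GRP94, calreticulin, calnexin and the disulfide isomerases fold the chain, and chains that fail are returned to the cytosol and destroyed by ER-associated degradation. When unfolded chains build up, 3 membrane sensors start the unfolded protein response: ATF6 is cut to release a transcription factor, IRE1 (Ern1) splices the Xbp1 mRNA, and PERK (Eif2ak3) phosphorylates eIF2 alpha, which favours translation of ATF4. ATF6 and XBP1 are known for inducing ER chaperones and degradation genes, and ATF4 for inducing Ddit3 (CHOP), Trib3 and amino acid genes. An array measures mRNA only, so splicing of Xbp1, cutting of ATF6 and translation of ATF4 were not measured.

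The livers came from 8 Sprague Dawley rats of unstated age, 4 given LPS, the endotoxin of Gram-negative bacteria, and 4 controls. The labels give LPS as 3 mg/kg into the peritoneum with death at 24 h, and describe the controls as non-treated in one place and as given 0.9% sodium chloride in another. The headers of the deposited table instead give day 2 throughout and doses of 0 mkd in controls, 1000 mkd (High) on LPS arrays 2 to 4 and 100 mkd (Mid) on the remaining LPS array, so dose and time are not settled and the groups are named only LPS and control. Each liver, in Cy5, was read on an Agilent array against a pool of control liver RNA in Cy3 that all 8 arrays shared, after 100 ng of RNA had gone through amplification. Arrays carry numbers by their order in the table within each group, which do not stand for the labels' replicates.

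Between 23408 and 23529 of 23615 probes had a value on each array. The measure throughout is the log2 ratio of liver over pool, where 0 means the level of the pool and 1 a doubling of it, and a difference is the LPS mean minus the control mean with its standard error (SE). A gene was called when the limma p-value, adjusted by Benjamini-Hochberg over all 21052 features, was under 0.05. By this rule 12.2% of all features were higher and 12.4% lower after LPS, and the median difference of all features was -0.04. In bulk liver, fewer cells of a type and less RNA per cell cannot be told apart. Markers of several cell types moved with LPS. Summed intensities of 7 tested hepatocyte markers were 46.1 to 53.5 units in LPS livers and 68.9 to 95.7 in control livers (1 higher, 3 lower), and those of 13 neutrophil markers 8.35 to 14.2 and 0.95 to 1.01 (5 higher, 1 lower). The hepatocyte sums differed mostly through Alb (16.8 and 32.6 units on average in LPS and control livers at its brighter summed probe) and Apoa2 (10.6 and 23.1 units). Apob, at 16.6 and 17.1 units at its brightest probe, was not called. Serpina1, which rose, averaged 0.0675 and 0.02 units. Ahsg, Apoa1, Fgb and Ttr lacked values on some arrays and were not in the sums. Kupffer cell and macrophage markers summed to 38.1 to 57.7 and 42.2 to 59.7 units (3 of 12 higher, 2 lower), T and NK cell markers to 3.64 to 5.07 and 2.18 to 2.54 (6 of 12 higher), endothelial markers to 30.5 to 40.2 and 44.2 to 50.6 (3 of 7 higher, 2 lower) and stellate cell markers to 10.6 to 13.3 and 13.2 to 16.2 (3 of 8 higher, 2 lower). Plasma cells, which are rich in ER, had 11 tested markers, of which 3 rose and 0 fell: Pou2af1 by 0.94 (0.338 and 0.118 units on average in LPS and control livers), Irf4 by 0.71 (0.135 and 0.06 units) and Fkbp11, an ER prolyl isomerase, by 0.89 (4.97 and 3.47 units). The summed plasma cell markers, 33.4 to 37.9 units in LPS livers and 23 to 34.4 in control livers, were mostly Sdc1 (27.6 and 23.4 units on average) and Fkbp11. Jchain averaged 0.06 and 0.03 units and Tnfrsf17 0.1 and 0.0575 units, neither called. Both lay below the median liver intensity of all probes, which ran from 0.12 to 0.17 units across arrays. Irf4, Sdc1, Jchain and Tnfrsf17 were named after their values were seen. The part of these cells in the results below was not tested.

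Control array 3 stood apart from the other controls. A2m, an acute-phase plasma protein, had log2 ratios of 2.42, 2.77, 2.58 and 2.68 on LPS arrays 1 to 4, against -3.59, -1.85, 1.79 and -0.92 on control arrays 1 to 4. Lbp, the LPS-binding protein, had 1.69, 1.74, 1.52 and 1.56 on the LPS arrays, against -1.66, -1.23, 1.51 and -0.58 on the control arrays. On control array 3 these 2 genes lay nearer to the LPS arrays than to the other controls. Lcn2, a further acute-phase gene, did not follow: it had 4.62, 4.23, 4.35 and 0.58 on the LPS arrays, against -0.38, -0.38, 0.94 and -0.65 on the control arrays, so that control array 3 was again the highest control but LPS array 4 lay below it. The same array was the highest control for 22 of the 32 ER genes (68.8%), against 25.1% of all features with a single highest control. Among the LPS arrays, LPS array 4 was the lowest for 19 of the 32 (59.4%), against 26.9% of features. Results are given with control array 3 in and, where it matters, without it.

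Most genes of ER folding and entry rose after LPS, while the regulators of the unfolded protein response went both ways. Of all features 24.7% were called in either direction. Of the 32 tested genes 21 rose (65.6%, against 12.2% of all features), 3 fell (9.4%, against 12.4%) and 8 were not called. The share of all features depends on dim probes. With at least 0.1 units of mean liver intensity in a group, 2774 of 14213 features were higher and 2752 lower (38.9% called). In that setting 22 of the 32 genes were higher and 3 lower. The median difference over the 32 was 0.60. The 4 LPS values lay above all 4 control values for 18 genes (background 13.1%) and below them for 3 (background 14.7%), and the other 11 overlapped. The 3 that fell were Trib3, Herpud1 and Atf4. Those not called were Dnajc3, Dnajb9, Syvn1, Sel1l, Edem1, Xbp1, Atf6 and Ssr3. At least 2-fold changes were seen for 11 called genes, and 4 of the 32, Creld2, Ddit3, Ssr2 and Spcs2, exceeded 1.5-fold by limma's treat test, as did 1.2% of all features upward and 0.66% downward. Without control array 3, 20 genes rose and the same 3 fell: 19 of the 21 kept their call, Eif2ak3 and Ssr4 lost it (adjusted p = 0.0572 and 0.0533) and Edem1 gained one. Quantile normalization of the ratios left 7 genes higher and 2 lower (7.21% of all features called). With the liver channel alone 14 were higher and 3 lower (17.2% of all features called), and 13 of the 21 rises kept their call. By their pool channel the arrays were cut into 2 sets, a number fixed beforehand: LPS arrays 2 to 4 and the rest. LPS arrays 2 to 4 are also those whose headers give 1000 mkd (High), so set and header dose cannot be told apart. With a term for these sets, where the contrast rests on LPS array 1, 5 genes were higher and 1 lower (8.1% of all features called).

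**Figure D1:**
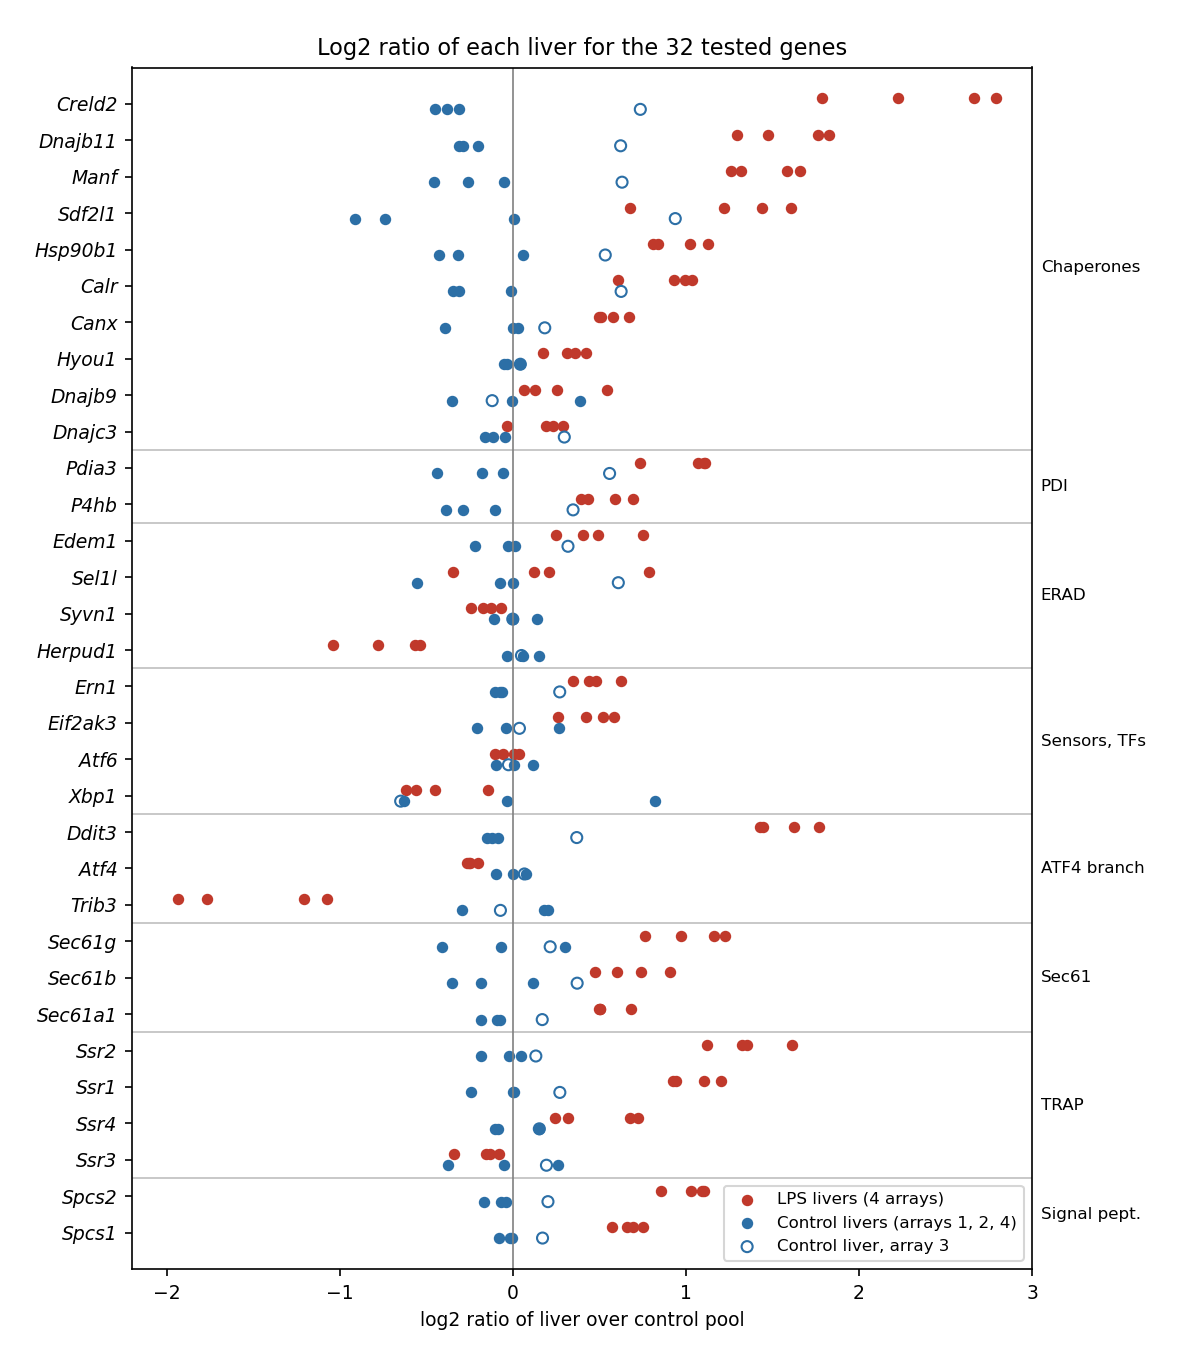
Log2 ratio of liver over control pool (horizontal axis) for each of the 32 tested ER genes, ordered by role; each point is 1 array, with LPS and control livers in separate colours and open circles for control array 3. LPS points lie to the right of the control points for 18 genes and to the left for Trib3, Herpud1 and Atf4.

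Promoters were searched for known response elements of the unfolded protein response. The 36 genes were chosen by name and include genes of this response, so their shares of matches are descriptions without a test. RefSeq promoters of the rat build GRCr8, 250 bases before to 50 bases after each gene's start, were found for 30 of the 36 genes and for 27457 genes in all; Manf, Pdia3, Pdia6, Ern1, Atf6 and Sec61a1 had none. The ER stress response element ERSE, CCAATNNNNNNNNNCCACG, is bound by ATF6 with NF-Y. On either strand it occurred in 0.0765% of all promoters (21 genes) and in 7 of the 30 members. The related ERSE-II, which is ATTGG, any base (N) and CCACG, occurred in 0.0619% (17 genes) and in 3 members, and the XBP1 element TGACGTGG in 0.681% (187 genes) and in 1 member, Hyou1, where it overlaps an ERSE-II. The ATF4 element TGATGNAAT occurred in 1.14% of promoters (312 genes) and in 0 members. The ERSE and ERSE-II matches are shown because the 9 members that hold them besides Hspa5 can be set beside their own changes below, with the fixed letters of each element in capitals and written so that the element reads 5′ to 3′. Positions are in GRCr8, and the element lies on the gene's own strand except in Creld2, Calr, Hyou1 and the upper of the Hsp90b1 lines.
Hspa5, ERSE at chr3:38452973-38452991: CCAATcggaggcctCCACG
Creld2, ERSE at chr7:121789239-121789257: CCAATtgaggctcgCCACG
Hsp90b1, ERSE at chr7:23012347-23012365: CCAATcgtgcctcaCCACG
Hsp90b1, ERSE at chr7:23012451-23012469: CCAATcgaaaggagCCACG
Calr, ERSE at chr19:40213135-40213153: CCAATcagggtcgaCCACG
Canx, ERSE at chr10:35158069-35158087: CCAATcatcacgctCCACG
Dnajc3, ERSE at chr15:102432534-102432552: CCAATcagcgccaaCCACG
Xbp1, ERSE at chr14:84604558-84604576: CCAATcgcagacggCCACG
Dnajb11, ERSE-II at chr11:91672800-91672810: ATTGGcCCACG
Herpud1, ERSE-II at chr19:10614821-10614831: ATTGGgCCACG
Hyou1, ERSE-II at chr8:53602694-53602704: ATTGGcCCACG
Hyou1, ERSE-II at chr8:53602794-53602804: ATTGGgCCACG

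Genes with an ERSE or ERSE-II did not all move alike: Creld2, Hsp90b1, Calr, Canx, Dnajb11 and Hyou1 (called at its dimmer probe only) rose, Dnajc3 and Xbp1 were not called, and Herpud1 fell. Outside the 36 genes, 10 tested genes had an ERSE, of which 1 rose and 0 fell, with a median difference of 0.18. For ERSE-II 1 of 8 such genes rose and 0 fell, for the XBP1 element 20 of 79 rose and 9 fell, and for the ATF4 element 6 of 86 rose and 11 fell, beside 12.2% higher and 12.4% lower among all features. The absence of a match says only that these letters are not in the window.

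ER chaperones and their cofactors rose in 8 of 10 tested genes, with a median difference of 0.95 and a range of 0.18 to 2.47. Creld2, a secreted and ER-resident protein with disulfide isomerase activity that is known as an ER stress gene, had the largest difference of the 32. Its log2 ratios were 2.23, 2.79, 2.67 and 1.79 in LPS livers, against -0.38, -0.45, 0.74 and -0.31 in control livers. All LPS livers were above all controls, and control array 3 was more than 1 log2 unit above the other controls. Creld2 rose by 2.47 ± 0.32 (SE; 5.54-fold, adjusted p = 0.00176), and without control array 3 by 2.75. In the liver channel its intensity was 3.84, 5.88, 4.95 and 2.66 units in LPS livers, against 0.66, 0.6, 1.45 and 0.71 units in control livers, while the pool lay near the control livers at 0.805 units on average on the LPS arrays and 0.858 on the control arrays. Its promoter is shown as that of the gene with the largest rise; the 250 bases before its start (chr7:121789134-121789383, plus strand, GRCr8) hold 1 ERSE, on the opposite strand, in capitals.
Creld2: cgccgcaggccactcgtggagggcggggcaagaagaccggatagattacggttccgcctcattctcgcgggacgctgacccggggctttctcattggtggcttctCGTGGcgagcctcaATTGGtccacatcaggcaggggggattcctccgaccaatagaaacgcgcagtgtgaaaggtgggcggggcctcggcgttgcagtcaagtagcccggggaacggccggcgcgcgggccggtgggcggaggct

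Dnajb11 (ERdj3), a BiP cofactor, and Manf, an ER-resident protein secreted under stress, followed. Dnajb11 had log2 ratios of 1.47, 1.76, 1.83 and 1.30 in LPS livers, against -0.29, -0.20, 0.62 and -0.31 in control livers, without overlap. It rose by 1.63 ± 0.23 (3.10-fold, adjusted p = 0.00234). Manf had 1.26, 1.66, 1.59 and 1.32 in LPS livers, against -0.45, -0.05, 0.63 and -0.26 in control livers, also without overlap. Manf rose by 1.49 ± 0.23 (2.81-fold, adjusted p = 0.00341). Sdf2l1, which works with Dnajb11 and BiP, had 1.22, 1.44, 1.61 and 0.68 in LPS livers, against -0.91, 0.01, 0.94 and -0.74 in control livers. LPS array 4 was below control array 3, and Sdf2l1 was the most variable member among the controls (SD 0.84). Its rise of 1.41 ± 0.42 was close to the threshold (adjusted p = 0.045) and was 1.79 without control array 3 (adjusted p = 0.00824). The call was lost when any of the other 7 arrays was left out.

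Hsp90b1 (GRP94), the ER's HSP90, had log2 ratios of 0.84, 1.13, 1.03 and 0.81 in LPS livers, against -0.31, -0.43, 0.53 and 0.06 in control livers. It rose by 0.99 ± 0.21 (adjusted p = 0.0123) and its 2 probes gave 1.01 and 0.97, although the brighter was close to the top of the scale, at 96.7% of the highest liver value on the LPS arrays. Its promoter is shown because it is the only tested member's with 2 ERSE, in capitals (chr7:23012294-23012543, minus strand, GRCr8).
Hsp90b1: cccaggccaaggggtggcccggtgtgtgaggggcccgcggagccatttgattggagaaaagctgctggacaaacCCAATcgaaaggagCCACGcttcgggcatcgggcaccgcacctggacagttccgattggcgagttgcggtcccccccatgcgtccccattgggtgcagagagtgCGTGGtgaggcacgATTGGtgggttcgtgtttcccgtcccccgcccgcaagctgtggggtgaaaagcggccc

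Calr (calreticulin) had 0.99, 0.93, 1.04 and 0.61 in LPS livers, against -0.34, -0.01, 0.63 and -0.31 in control livers, and rose by 0.90 ± 0.22 (adjusted p = 0.0224). Its LPS array 4 lay just below control array 3, and its call was lost when LPS array 1, 2 or 3 or control array 1, 2 or 4 was left out. Canx (calnexin), the membrane-bound relative of calreticulin, rose by 0.61 ± 0.12 with no overlap. At its brighter probe the liver averaged 1.0625 units in LPS livers and 0.7375 in control livers. The pool there averaged 0.5875 units on the LPS arrays and 0.7575 on the control arrays, and the Canx call was lost with the liver channel alone. Hyou1 (GRP170), a nucleotide exchange factor for BiP, rose by 0.32 ± 0.06, but its brighter probe gave 0.11 (not called) and its dimmer probe 0.53. The liver intensity averaged 0.1725 units in LPS and 0.1675 in control livers at the brighter, and 0.17 and 0.1025 units at the dimmer. The Hyou1 call was lost with the brightest probe of each gene and with the liver channel alone. The cofactors Dnajc3 (p58IPK), at 0.18 ± 0.12, and Dnajb9 (ERdj4), at 0.27 ± 0.17, were not called. For Dnajc3 the brighter probe gave 0.70 (adjusted p = 0.0617) and the dimmer probe -0.35 (adjusted p = 0.0214), so the gene's mean stands for neither.

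Both tested disulfide isomerases, Pdia3 and P4hb, rose. Pdia3 (ERp57), which works with calnexin and calreticulin on glycoproteins, had log2 ratios of 1.11, 1.11, 1.07 and 0.74 in LPS livers, against -0.18, -0.43, 0.56 and -0.06 in control livers. It rose by 1.03 ± 0.21 (2.05-fold, adjusted p = 0.0101). P4hb, which is PDI itself, rose by 0.63 ± 0.16 (adjusted p = 0.0259), with liver intensities of 49.0, 54.9, 51.6 and 48.0 units in LPS livers, against 33.3, 36.8, 47.9 and 35.7 in control livers. These are near the top of the scale, which held 3 of its arrays at 90% or more of the highest value, and its call was lost without any of 6 of the 8 arrays.

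**Figure D2:**
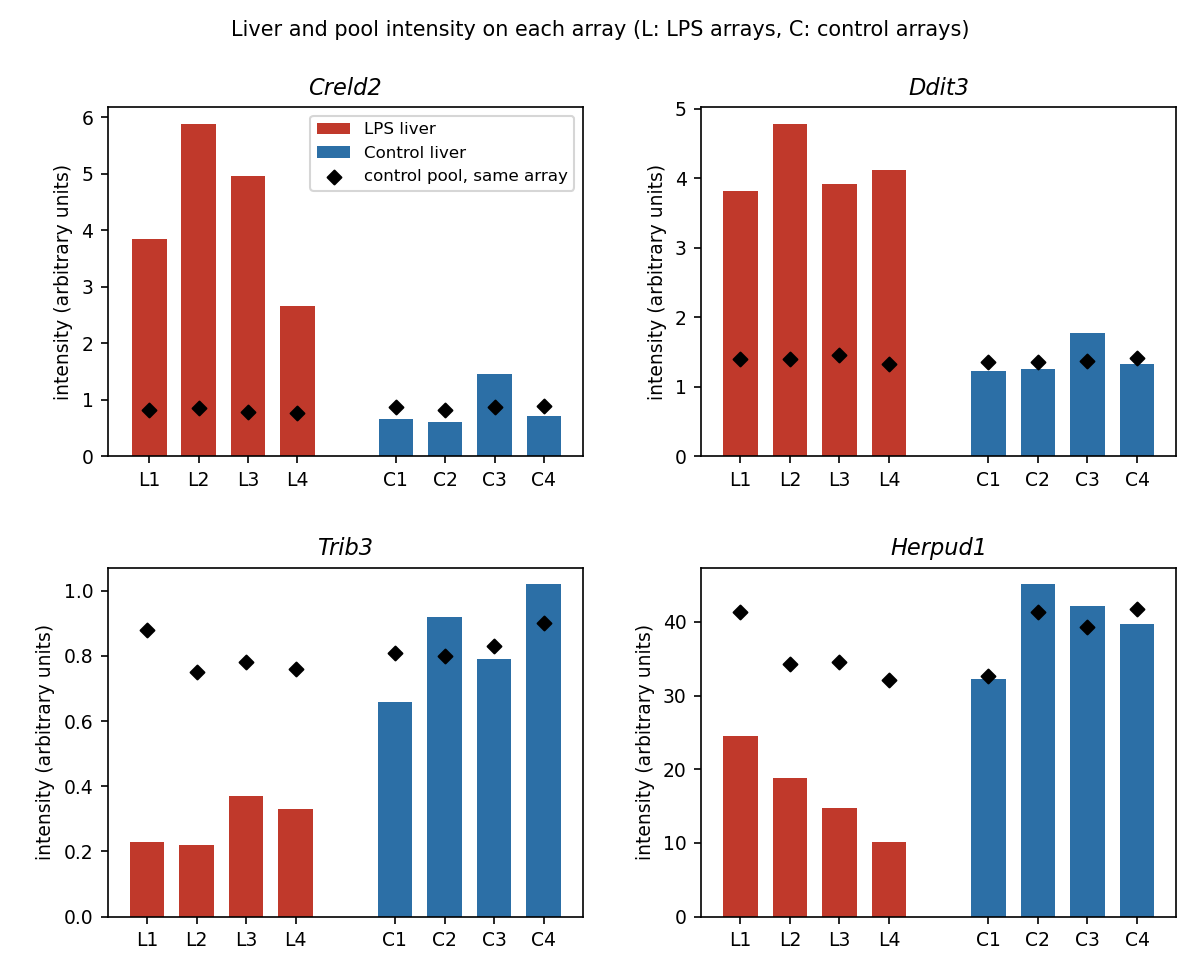
Deposited intensities (vertical axes, arbitrary units, linear scale with a range of its own for each gene) on each of the 8 arrays for Creld2, Ddit3, Trib3 and the brighter Herpud1 probe; bars are livers, LPS (L) left of control (C), and diamonds are the pool on the same array. The Creld2 liver signal is 2.66 to 5.88 units in LPS livers and 0.6 to 1.45 units in control livers, and that of the brighter Herpud1 probe 10.2 to 24.5 units and 32.3 to 45.1 units.

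Secretory entry rose in 8 of 9 tested genes, with a median difference of 0.69. Among the chaperones and isomerases 10 of 12 rose, with a median difference of 0.95. Of the TRAP complex, Ssr2 (TRAP beta) had log2 ratios of 1.32, 1.35, 1.61 and 1.12 in LPS livers, against -0.02, 0.05, 0.13 and -0.18 in control livers. The groups were well apart, and control array 3 was close to the other controls. Ssr2 rose by 1.36 ± 0.11 (2.56-fold, adjusted p = 0.000335). Ssr1 (TRAP alpha) rose by 1.04 ± 0.12 (adjusted p = 0.000946), with 1.39 and 0.68 at its brighter and dimmer probes. Ssr4 (TRAP delta) rose by 0.46 ± 0.13 (adjusted p = 0.039), a call lost when LPS array 2 or 3 or any control array was left out. Ssr3 (TRAP gamma) was the exception in the complex, at -0.18 ± 0.14 (adjusted p = 0.386), with -0.13, -0.08, -0.15 and -0.34 in LPS livers, against -0.37, 0.26, 0.19 and -0.05 in control livers. Its intensity in the pool was 0.683 units on the LPS arrays and 0.968 on the control arrays, and with the liver channel alone Ssr3 was called lower, at -0.70.

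The 3 Sec61 channel subunits rose. Sec61g had 0.97, 1.17, 1.23 and 0.77 in LPS livers, against -0.07, 0.30, 0.22 and -0.41 in control livers, and rose by 1.02 ± 0.18 (adjusted p = 0.0052), with 1.07 and 0.97 at its 2 probes. Sec61b rose by 0.69 ± 0.17 (adjusted p = 0.0221), a call lost without LPS array 2 or 3 or control array 1. Sec61a1, the pore itself, rose by 0.59 ± 0.09 (adjusted p = 0.0027) as a mean of 3 probes, of which the 2 brighter gave 0.86 and 1.12 and the dimmest, at 0.0274 units in LPS livers and 0.0086 units in control livers, gave -0.20 and was not called. Of signal peptidase, Spcs2 had 0.86, 1.1, 1.09 and 1.03 in LPS livers, against -0.07, -0.17, 0.20 and -0.04 in control livers, without overlap. Spcs2 rose by 1.04 ± 0.09 (2.05-fold, adjusted p = 0.000424) and Spcs1 by 0.65 ± 0.07 (adjusted p = 0.000701).

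Of ER-associated degradation, 0 of 4 tested genes rose and 1 fell, with a median difference of 0.02. Herpud1, a membrane protein that organises the ubiquitin ligase HRD1 and is known as an ER stress gene, had log2 ratios of -0.54, -0.57, -0.78 and -1.04 in LPS livers, against 0.15, 0.06, 0.05 and -0.03 in control livers. Every LPS liver was below every control, and control array 3 lay among the other controls. Herpud1 fell by 0.79 ± 0.11 on the log2 scale (0.579 of the control level, adjusted p = 0.00263). The brighter of its 2 probes, at 24.5, 18.8, 14.7 and 10.2 units in LPS livers against 32.3, 45.1, 42.1 and 39.8 units in control livers, fell by 1.16 on the log2 scale. The dimmer, at 0.04 and 0.0375 units, fell by 0.41 relative to the pool. With the liver channel alone Herpud1 fell by 0.84 on the log2 scale (adjusted p = 0.0271). Its promoter is shown because Herpud1 fell while it holds an ERSE-II, in capitals (chr19:10614708-10614957, minus strand, GRCr8).
Herpud1: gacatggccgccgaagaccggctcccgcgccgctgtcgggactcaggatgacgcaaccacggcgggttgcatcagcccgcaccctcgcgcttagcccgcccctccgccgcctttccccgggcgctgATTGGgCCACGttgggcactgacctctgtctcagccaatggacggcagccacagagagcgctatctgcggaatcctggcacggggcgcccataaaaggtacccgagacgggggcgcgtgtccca

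Syvn1, the HRD1 ligase, was at -0.16 ± 0.07 (adjusted p = 0.121). In the liver channel alone it was higher by 0.49 (adjusted p = 0.0424), while the pool on the LPS arrays averaged 0.245 units and that on the control arrays 0.135 units, so its direction depends on the pool channel. Edem1, a mannosidase-like protein that picks glycoproteins for degradation, was at 0.45 ± 0.14 (adjusted p = 0.0533) and was called without control array 3, at 0.55 (adjusted p = 0.025). Sel1l, the partner of HRD1, was at 0.20 ± 0.30, and its probes went different ways, with -0.28 at the brighter and 0.67 at the dimmer, neither called.

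Of the sensors and their transcription factors, 2 of 4 rose, with a median difference of 0.20. Ern1 (IRE1 alpha) had log2 ratios of 0.35, 0.48, 0.62 and 0.44 in LPS livers, against -0.08, -0.06, 0.27 and -0.10 in control livers, without overlap, and rose by 0.46 ± 0.10 (adjusted p = 0.0138). Only its dimmer probe was called on its own, at 0.61, against 0.32 at the brighter. Eif2ak3 (PERK) rose by 0.44 ± 0.11 (adjusted p = 0.0292), with LPS array 4 just below control array 2. That call was lost when LPS array 1, 2 or 3 or control array 1, 3 or 4 was left out. Atf6 was at -0.03 ± 0.06, and none of its 3 probes was called. The 95% interval of its difference ran from -0.17 to 0.11. Xbp1 was at -0.32 ± 0.32, with -0.56, -0.61, -0.15 and -0.45 in LPS livers, against -0.03, 0.82, -0.65 and -0.63 in control livers. Here the controls spread more than the LPS livers and the 95% interval, -1.07 to 0.43, is wide.

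The ATF4 branch split, with 1 gene up and 2 down. Ddit3 (CHOP), a transcription factor of prolonged ER stress, had log2 ratios of 1.45, 1.77, 1.43 and 1.63 in LPS livers, against -0.15, -0.12, 0.37 and -0.08 in control livers. Its lowest LPS value was more than 1 log2 unit above its highest control, which was control array 3. Ddit3 rose by 1.57 ± 0.14 (2.96-fold, adjusted p = 0.000364), and its liver intensity was 3.82, 4.78, 3.91 and 4.11 units in LPS livers, against 1.22, 1.25, 1.77 and 1.33 units in control livers. The call held in all 23 alternatives tried, some of which hardly change the values, with a highest adjusted p of 0.017. Its promoter (chr7:65001445-65001694, plus strand, GRCr8), shown beside that of Trib3 because the 2 moved in opposite directions, held none of the 4 elements.
Ddit3: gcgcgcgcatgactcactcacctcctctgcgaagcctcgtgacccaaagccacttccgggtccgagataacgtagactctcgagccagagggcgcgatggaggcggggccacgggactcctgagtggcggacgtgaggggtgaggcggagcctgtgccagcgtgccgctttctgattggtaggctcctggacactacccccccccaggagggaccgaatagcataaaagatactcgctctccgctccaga

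Trib3, a pseudokinase that is a textbook target of ATF4 and CHOP and is known to restrain them, had -1.94, -1.77, -1.08 and -1.20 in LPS livers, against -0.30, 0.20, -0.07 and 0.18 in control livers. All LPS livers were below all controls. Trib3 fell by 1.5 ± 0.22 on the log2 scale (0.354 of the control level, adjusted p = 0.00262), with liver intensities of 0.23, 0.22, 0.37 and 0.33 units in LPS livers, against 0.66, 0.92, 0.79 and 1.02 units in control livers. Its promoter held none of the 4 elements either (chr3:161275534-161275783, minus strand, GRCr8).
Trib3: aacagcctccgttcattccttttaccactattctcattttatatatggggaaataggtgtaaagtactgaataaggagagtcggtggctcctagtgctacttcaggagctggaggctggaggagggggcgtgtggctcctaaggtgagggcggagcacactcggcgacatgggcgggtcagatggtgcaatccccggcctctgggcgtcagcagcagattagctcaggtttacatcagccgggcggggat

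Atf4 itself had -0.20, -0.25, -0.26 and -0.25 in LPS livers, against 0.08, -0.10, 0.07 and 0.00 in control livers, and fell by 0.25 ± 0.05 on the log2 scale (adjusted p = 0.0124). This fall depends on the pool: the liver intensity was 0.27, 0.21, 0.15 and 0.16 units in LPS livers, against 0.19, 0.14, 0.22 and 0.14 units in control livers, while the pool averaged 0.233 units on the LPS arrays and 0.17 units on the control arrays. With the liver channel alone the difference was -0.06 (adjusted p = 0.899).

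**Figure D3:**
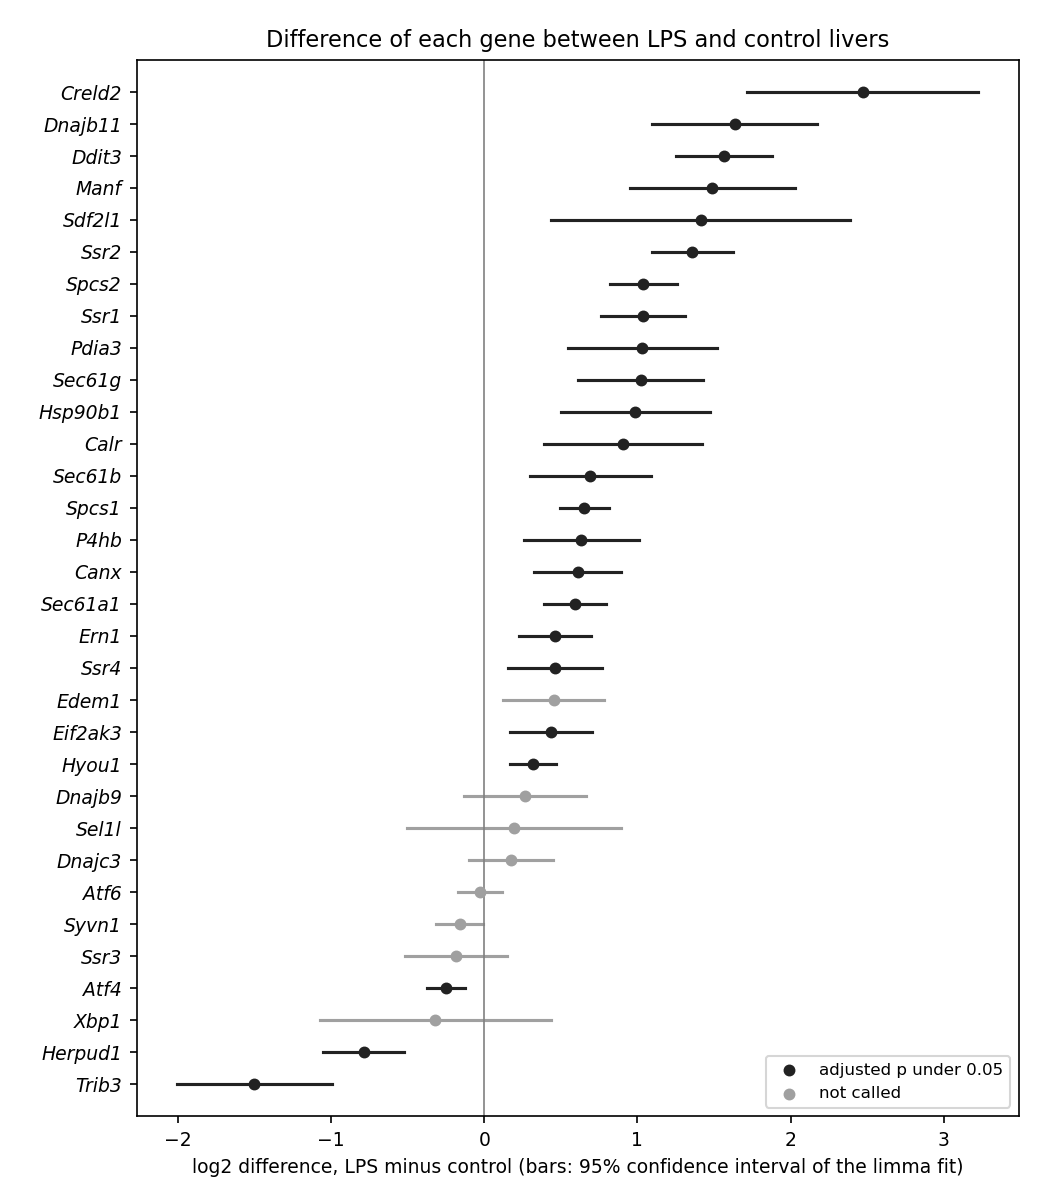
Difference in log2 ratio, LPS minus control, for the 32 tested ER genes, with 95% confidence intervals from the limma fit; dark points are called at an adjusted p under 0.05 and grey points are not. Creld2 has the highest difference, at 2.47, and Trib3 the lowest, at -1.5.

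Set side by side, the 3 kinds of gene differed across arrays. The median log2 ratio of the 12 chaperones and isomerases was 0.92, 1.02, 1.03 and 0.64 in LPS livers, against -0.29, -0.08, 0.55 and -0.28 in control livers, a mean of 0.90 ± 0.18 and -0.02 ± 0.39 (SD, n = 4 each). That of the 9 entry genes was 0.66, 0.75, 0.91 and 0.58 in LPS livers, against -0.07, 0.05, 0.19 and -0.10 in control livers, a mean of 0.72 ± 0.14 and 0.02 ± 0.14. Control array 3 was the highest control in both sets, and its chaperone median was nearer to that of LPS array 4 than to those of the other controls. LPS array 4 was the lowest LPS array in both. The 3 ATF4 branch genes had a median of -0.20, -0.25, -0.26 and -0.25 in LPS livers, against -0.15, -0.10, 0.07 and 0.00 in control livers. On each LPS array that median is the value of Atf4, between Ddit3 and Trib3. These medians are descriptions without a test, since the genes were chosen with results of these data known.

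**Figure D4:**
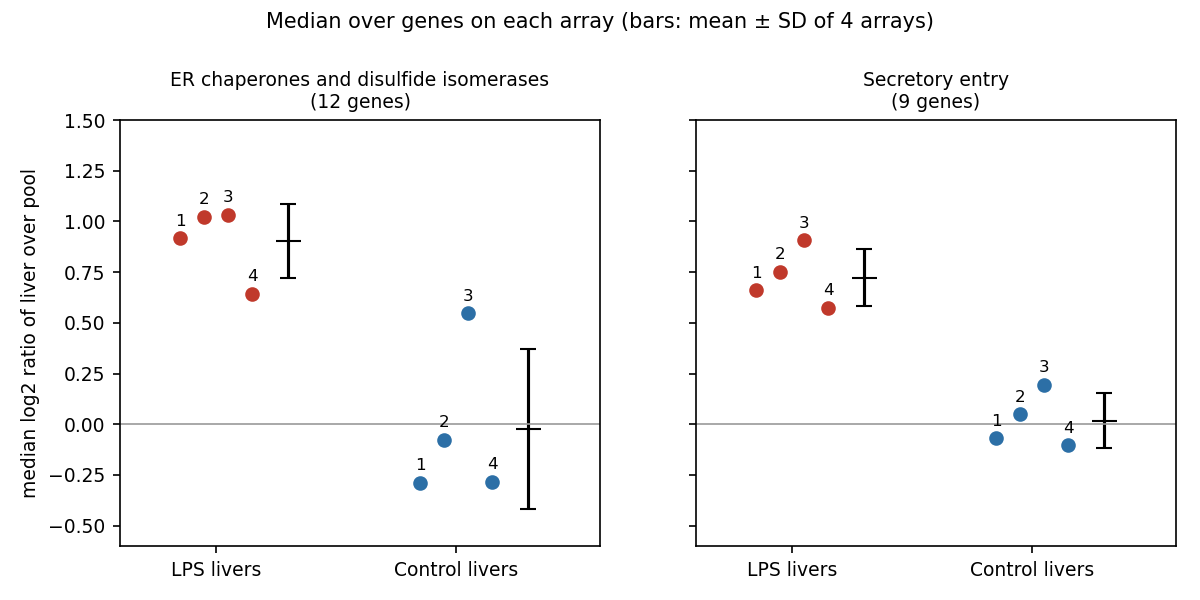
Median log2 ratio of liver over pool on each numbered array for the chaperones and isomerases (12 genes) and the secretory entry genes (9), with LPS livers left of control livers and bars for the mean ± SD of 4 arrays. The chaperone and entry medians are 0.58 or higher in every LPS liver, and control array 3 is the highest control, at 0.55 and 0.19.

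The 8 wider lists of ER and stress genes, none of which holds any of the 36, were also counted. Of 155 tested genes 49 rose (31.6%, against 12.2% of all features) and 15 fell (9.7%, against 12.4%), with a median difference of 0.12. The oligosaccharyltransferase, which adds N-glycans to chains at the channel, rose in 8 of 11 genes and fell in 1, with a median of 0.53. Its largest rises were those of Ostc, at 0.79, and Rpn1, at 0.78, and Tusc3 fell by 0.29 on the log2 scale. The signal recognition particle, its receptor and other entry genes rose in 9 of 22 and fell in 0. They included the signal peptidase catalytic subunits Sec11c, at 1.30 ± 0.17 (adjusted p = 0.00186), and Sec11a, at 0.91 ± 0.10. COPII coat and ER exit genes rose in 11 of 24, with a median of 0.24. Tmed3, a cargo receptor of the p24 family, had log2 ratios of 2.14, 2.51, 2.39 and 1.86 in LPS livers, against -0.47, 0.00, 0.28 and 0.22 in control livers. It rose by 2.22 ± 0.20 (adjusted p = 0.000429), more than any member except Creld2, and Sec13, of the coat's outer cage, rose by 1.16 ± 0.08. Sar1b, the GTPase that starts the coat, fell by 0.46 on the log2 scale.

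The lists of folding and degradation genes had medians of 0.11 to 0.24, and their counts stand beside 12.2% higher and 12.4% lower among all features. N-glycan trimming and calnexin cycle genes rose in 4 of 10 and fell in 1 (Lman2 at 0.66, Cnpy2 at 0.52, Cnpy3 at -0.33). Other oxidoreductases and prolyl isomerases rose in 4 of 15 and fell in 1. The prolyl isomerases Fkbp11, which is also on the plasma cell list, at 0.89, and Fkbp14, at 0.63, rose, and Prdx4, the ER peroxiredoxin, fell by 0.83 on the log2 scale. For Fkbp14 the ratio was exactly 0 on every control array, so liver and pool read alike there to 2 decimals. Other degradation genes rose in 5 of 20 and fell in 1. Os9, a lectin that hands glycoproteins to HRD1, rose by 1.20 ± 0.12 (adjusted p = 0.000529), Selenok rose by 0.77 and Faf2 was at -0.28. Derl3 had the largest difference of that list, 1.29 ± 0.65, and was not called (adjusted p = 0.195): it had 1.07, 1.4, 1.53 and -0.33 in LPS livers, against -0.50, -1.11, 1.35 and -1.23 in control livers. LPS array 4 was thus among the controls and control array 3 among the LPS livers for Derl3, which was named after its values were seen.

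Other unfolded protein response regulators rose in 2 of 19 and fell in 7, with a median of -0.11. Creb3l3 (CREBH), a liver transcription factor activated in the Golgi like ATF6, fell by 0.78 ± 0.14 on the log2 scale (adjusted p = 0.00595). Ppp1r15b, which brings a phosphatase to eIF2 alpha, fell by 0.45, while Eif2ak4 (GCN2) rose by 0.54 and Eif2s1 (eIF2 alpha) by 0.45. Of the other ATF4 targets 6 of 34 rose (17.6%) and 3 fell (8.8%), with a median of -0.06, which is near the 12.2%, 12.4% and -0.04 of all features. Mthfd2, a mitochondrial folate enzyme, rose by 1.51 ± 0.20 (adjusted p = 0.00181) and Pycr1, of proline synthesis, by 1.19, while Phgdh, of serine synthesis, fell by 1.26 ± 0.20 (adjusted p = 0.00412) and the amino acid transporter Slc38a2 by 0.63. The log2 ratios of Mthfd2 were 1.93, 1.12, 1.22 and 1.75 in LPS livers, against -0.14, 0, 0.26 and -0.14 in control livers. Intensities of these ATF4 targets are not given here. For comparison, chaperones of the cytosol and mitochondria rose in 3 of 19 and fell in 2, with a median of 0.19. Among them Cct7 rose by 0.47 and Hspe1 by 0.37, and the HSP70 cofactors Dnaja1 and Dnajb1 were at -0.61 and -0.36.

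**Figure D5:**
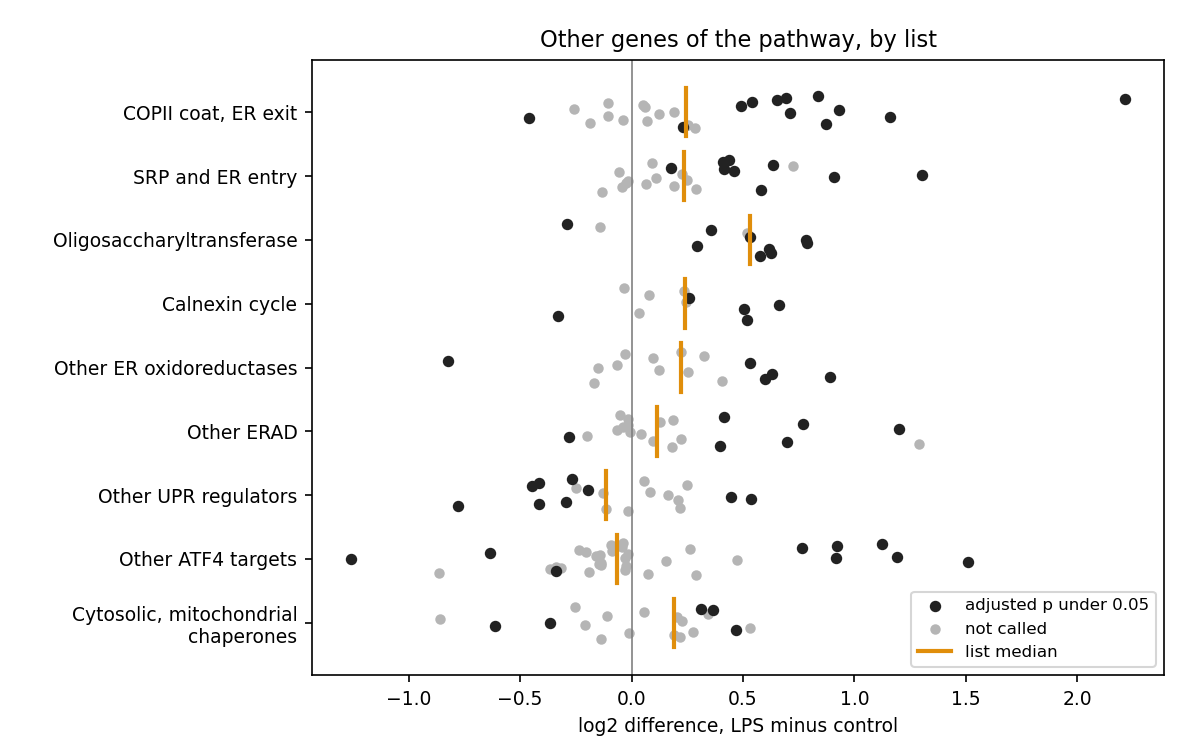
Difference in log2 ratio, LPS minus control (horizontal axis), for each tested gene of the 8 wider lists and of the chaperones of cytosol and mitochondria; dark points are called genes, grey points are not, and orange bars are list medians. The oligosaccharyltransferase has the highest median, 0.53, and Tmed3 of the COPII list has the highest difference, 2.22.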

How the data were processed

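RNA of 8 rat livers was measured on Agilent arrays with 2 channels; numbers of arrays limit the precision. Per the file headers, the deposited table holds an intensity for the liver and for the control pool on each array, in arbitrary units with 2 decimals. The submitters' processing notes name Agilent Feature Extraction 8.5.1.1. How background, dyes and saturated spots were handled is not given in the sources used here, which could change values at the top and bottom of the scale. The deposited series matrix holds the log10 ratio of the same arrays (3.32 log2 units per log10 unit, r = 1.00 with 1 array each) and served as an alternative. Another 8 columns, p-values by the authors for single arrays, were not used.

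Probes were named by accession in the RefSeq gene table of GRCr8 (4175), else by current (9465) or older symbol (2629). The log2 ratio was averaged over probes of a symbol, 188 probes were left out because a group had under 3 values, and 21052 features were fitted in R 4.3.3 by limma 3.58.1 (lmFit, then eBayes without covariates, and treat for 1.5-fold), with Benjamini-Hochberg adjustment over all of them. No value was imputed. The labels name the replicates as biological. The 36 genes, the wider lists and the alternatives were chosen with earlier results of these data known. All 36 are named. From each wider list up to 2 rises and 2 falls are named. Protein sequences were not analysed here.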

Additional observations from a re-analysis of the deposited data

Results flagged for a closer look

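In 6 of 70 groups of 4 arrays, 1 array stood apart from the other 3 by Dixon's criterion (8.6%, where chance gives about 5%). In 4 of them it was control array 3, which was high. Its log2 ratio of liver over pool was 0.74 for Creld2, against -0.45 to -0.31 in the other controls, and 0.62 for Dnajb11, against -0.31 to -0.2. It was 0.37 for Ddit3, against -0.15 to -0.08, and 0.27 for Ern1, against -0.1 to -0.06. LPS array 4 was low for Pdia3, at 0.74 against 1.07 to 1.11 on the other LPS arrays. LPS array 2 was high for Sec61a1, at 0.68 against 0.5 to 0.51.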

How the results depend on the processing

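Over 23 alternatives, 620 of 735 values of single ER genes kept their direction and their side of the threshold, 100 lost their call, 7 gained one and 8 turned sign. Some alternatives could hardly differ from the main fit, which raises the share kept. The median of each array was already 0 before centring, and the series matrix holds the same ratios. Both gave 21 ER genes higher and 3 lower, as did probes with a value on all arrays. Quantile normalization of the ratios gave 7 ER genes higher, and 19 of the wider lists' genes higher and 1 lower. It gave medians of 0.54 for entry and -0.086 for the ATF4 branch. With the liver channel alone, 14 ER genes were higher and 3 lower, and 13 of the 21 rises kept their call. Calr, Canx, Eif2ak3, Ern1, Hyou1, P4hb, Sec61b and Ssr4 lost their rise and Atf4 its fall. Syvn1 became higher and Ssr3 lower. In that setting 22 wider genes were higher and 14 lower, and the ATF4 branch median was -0.0578. Against a 1.5-fold change, 4 ER genes were higher and 0 lower, and 4 wider genes were higher and 0 lower. A term for the array sets of the pool channel, which cannot be told apart from the header dose, gave 5 higher and 1 lower, and 14 wider genes higher and 2 lower. Entry had a median of 0.91 with at least 0.1 units of intensity and 0.86 with the brightest probe of each gene. Whether the labels' replicate numbers pair the livers is not settled. Livers of the same number had correlations of -0.003, -0.011, 0.015 and 0.153, but livers of different numbers were not compared. With these numbers as a replicate block on the series matrix, 22 ER genes were higher and 3 lower, and 9 wider genes were lower. Without control array 3 and LPS array 1 together, 9 wider genes were lower. Leaving out each array in turn gave 15 to 20 ER genes higher and 3 lower, 35 to 49 wider genes higher and 10 to 18 lower, and medians of 0.84 to 1.12 (chaperones), 0.64 to 0.76 (entry) and -0.23 to -0.16 (ATF4 branch). The values that turned sign were Sel1l at -0.28 (brightest probe, and 0.1 units), -0.10 (liver channel), -0.34 (array sets) and -0.0016 (without LPS array 4), Atf6 at 0.0107 (quantile normalization) and 0.0103 (without control array 2) and Syvn1 at 0.49 (liver channel). Leaving out each array in turn gave -0.0016 to 0.4006 for Sel1l and -0.061 to 0.0103 for Atf6. The causes were not tested, except that leaving out arrays leaves fewer samples. Bright spots without a value, as for Hspa5, and spots near the top of the scale, as for P4hb, limit what could be measured.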
